A study of Mus musculus with 2 samples.

Results

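Retinoic acid is made from retinol (vitamin A) and acts as a ligand of nuclear receptors. Cells take up retinol through STRA6, oxidise it to retinaldehyde and then to retinoic acid with aldehyde dehydrogenases such as ALDH1A1 and ALDH1A2, carry it on the cytosolic proteins CRABP1 and CRABP2, and degrade it with hydroxylases of the CYP26 family. The ligand acts through the receptors RARα, RARβ and RARγ, which bind DNA together with an RXR partner, and in the embryo the balance of synthesis and degradation patterns tissues such as the limb and the hindbrain.

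The 9 genes described here, Cyp26b1, Aldh1a1, Aldh1a2, Crabp1, Crabp2, Rara, Rarb, Rarg and Stra6, cover uptake, synthesis, binding and degradation of retinoic acid and its RAR receptors, out of 18193 genes with a probe set named for that gene alone. They were picked by name with earlier results of the same arrays known, the ratio of Cyp26b1 among them, so their ratios are given as a description. All 9 were measured, on 10 probe sets, with 1 probe set for 8 genes and 2 for Rarg. The probe set given first for Rarg was selected on its signal, as the one with the higher mean log2 signal of both arrays. A signal under 100 intensity units was counted as low. The signals closest to this limit were 103.6 for the dimmer probe set of Rarg in wild type cells on one side, and 98.8 for Rara in knock out and 97.8 for Aldh1a1 in wild type cells on the other.

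Mouse embryo fibroblasts (MEFs) were cultured from day 12.5 embryos that were wild type or Ebp1 knock out, the latter carrying a gene trap in intron 2 of Pa2g4, the gene of the ErbB3 binding protein Ebp1. Both cultures were grown with 10% fetal bovine serum and are labelled passage 2. RNA of each genotype was hybridised to 1 Affymetrix array, so no value below has a replicate error or a p-value, and the number of embryos behind each culture is not stated. Retinol and retinoic acid were not measured, and the labels name no retinoid treatment.

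Differences are given as log2 of the knock out signal divided by the wild type signal, called the log2 ratio. For Pa2g4, the trapped gene, it was below 0 on 5 of 5 probe sets (-0.90 to -0.33), of which 1 was low on both arrays. Signal was still read in the culture labelled knock out, with 1835 and 1178 on the brightest probe set and 1343 and 1072 on the next. The place of these probe sets relative to the trap was not analysed here, so they do not settle the label. The study itself found no Ebp1 transcript by RT-PCR and no Ebp1 protein by Western blot in knock out MEFs. Of 8 fibroblast markers, 8 had at least 500 intensity units on their brightest probe set, 4 with log2 ratios above 0 and 4 below (-0.67 for Pdgfrb to 0.26 for Col1a2), and their summed signal was 52959 for the wild type and 53201.2 for the knock out culture, while 3 of 3 measured erythroid markers were under 100 on both arrays. Dim probe sets scattered more than bright ones. Over all probe sets the standard deviation of the log2 ratio was 1.24 for mean signals under 50, 0.43 from 250 to 500 and 0.33 from 1000 to 2000. The spike-in controls added at hybridization read 1.31-fold brighter on the knock out array, and scaling to them shifts each log2 ratio by -0.39, so that any value between 0 and 0.39 changes its sign.

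Sequences upstream of 3 of the genes are shown because receptor binding to such DNA is the known route by which retinoic acid acts on Rarb and Cyp26a1, and because Cyp26b1 had the highest log2 ratio among the 5 members that reached 100. They are the last 120 bases before the start site for Rarb and Cyp26a1, a close relative of Cyp26b1, and the last 180 for Cyp26b1, from RefSeq on GRCm38.p6, written 5′ to 3′ on the strand of each gene. Capitals mark direct repeats in Rarb (chr14:16575477-16575596, minus strand) and Cyp26a1 (chr19:37697688-37697807, plus strand), and TATAAA or GGGCGG boxes in Cyp26b1 (chr6:84593811-84593990, minus strand).
Rarb: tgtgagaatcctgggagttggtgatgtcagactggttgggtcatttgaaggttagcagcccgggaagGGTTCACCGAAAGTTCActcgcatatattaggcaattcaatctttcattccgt
Cyp26a1: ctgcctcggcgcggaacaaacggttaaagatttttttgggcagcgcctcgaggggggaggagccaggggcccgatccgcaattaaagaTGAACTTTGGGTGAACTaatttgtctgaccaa
Cyp26b1: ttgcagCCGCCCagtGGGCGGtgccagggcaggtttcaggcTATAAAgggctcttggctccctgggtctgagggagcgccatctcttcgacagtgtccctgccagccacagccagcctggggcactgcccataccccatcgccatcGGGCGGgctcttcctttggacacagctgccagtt

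Receptors of retinoic acid bind pairs of a hexamer in direct repeat. Promoters, 250 bases before to 50 after each start site, were searched on both strands for pairs of the hexamers AGGTCA or AGTTCA or GGGTCA or GGTTCA with 1, 2 or 5 bases between. Of 32851 promoters, 0.222% held such a pair with 1 base between, 0.268% with 2 and 0.0974% with 5. The promoter of Rarb held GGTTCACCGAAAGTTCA on its own strand, 53 to 37 bases before the start site. The promoter of Cyp26a1 held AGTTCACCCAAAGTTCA on the opposite strand, 32 to 16 bases before the start site. Both have 5 bases between the hexamers. No other promoter entry of the 8 members that had one (16 entries in all, none for Crabp2) held such a pair, that of Cyp26b1 included. In the longer window of Cyp26b1 the box TATAAA, found in 13.6% of all promoters, lay 139 to 134 bases before the start site, and GGGCGG, found in 35.7%, occurred 3 times. Of 67 genes of the pathway with a promoter entry, only Rarb, Cyp26a1 and Bco1, a carotene-cleaving enzyme gene with 1 base between the hexamers, held a pair. These matches are of letters only, and binding was not measured.

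Of the 9 members, 4 reached 500 on at least 1 array, which is the minimum of the study, and 5 reached 100. The members at 100 or more on both arrays were Cyp26b1, Crabp1, Crabp2 and Rarg. Aldh1a2 reached 100 only in wild type MEFs, and Aldh1a1, Rara, Rarb and Stra6 were under 100 on both arrays. A degrading enzyme, both cytosolic binding proteins and a single receptor were therefore the members measured above the low range in both cultures.

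**Figure D1:**
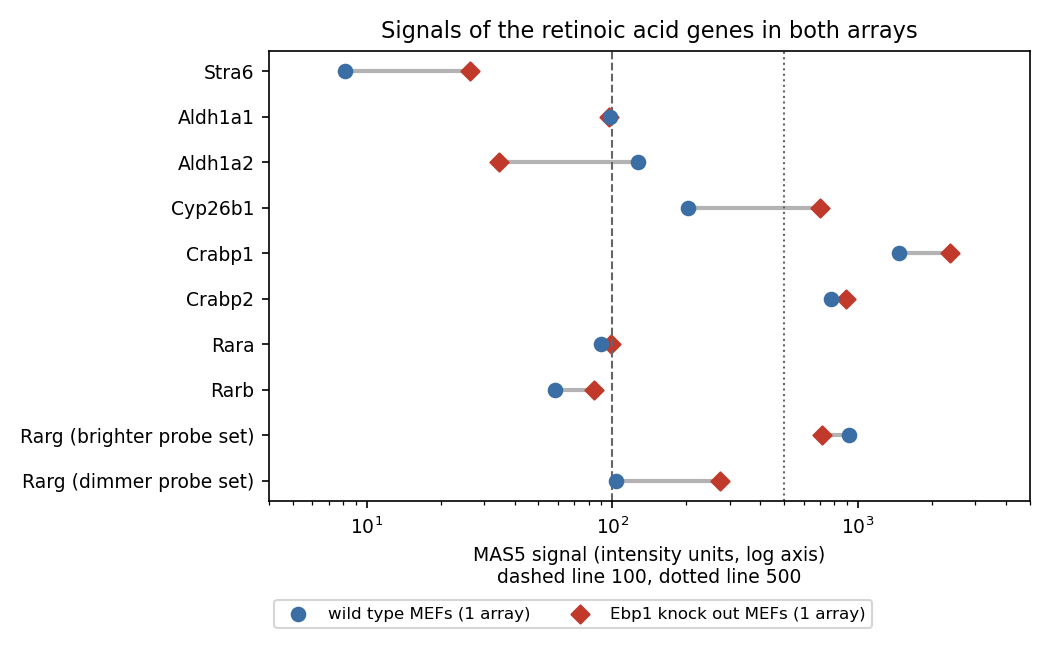
Signals of the 10 probe sets of the 9 genes on the wild type array (blue circles) and the Ebp1 knock out array (red diamonds), on a logarithmic axis of intensity units, with 1 array per genotype and no error. The dotted line marks 500. Cyp26b1 reads 203 and 699.6, Aldh1a2 lies above 100 only in wild type MEFs, and 4 genes lie left of the line at 100 on both arrays.

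Cyp26b1, which encodes a hydroxylase that inactivates retinoic acid, was the only member over 2-fold apart with at least 500 on 1 array. Its single probe set (Entrez gene 232174) read 203 in wild type MEFs against 699.6 in the Ebp1 knock out, a log2 ratio of 1.78, or 3.44-fold higher. The wild type signal was above the low range but under 500, so the count rests on the knock out array. It was over 2-fold higher under each scaling of the arrays tried, with log2 ratios from 1.39 after spike-in scaling to 1.82 after loess. In bulk RNA such as this, a different number of cells of a type and a different amount of RNA per cell cannot be told apart.

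As background to this count, 1.64% of 7857 probe sets that reached 500 were over 2-fold higher and 0.942% were over 2-fold lower, and among the 4 member probe sets that reached 500, 1 was higher and 0 were lower. Counted by the brightest probe set of each gene, 0.758% of 5014 genes were higher and 1.06% lower. At mean signals from 250 to 500, where Cyp26b1 lies with a geometric mean of 377, 1.83% of 4595 probe sets were over 2-fold higher. With a minimum of 100, 3.42% of 20412 probe sets were higher and 1.88% lower, and of the 6 member probe sets that reached it 2 were higher (Cyp26b1 and the dimmer one of Rarg) and 1 was lower (Aldh1a2). By gene these shares were 1.58% and 1.93% of 10553. The single member over 2-fold on the minimum of 500 is thus a small count, and no share can be read from it.

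The other measured enzymes that degrade retinoic acid were dim. Cyp26a1, the hydroxylase that is a classical target of retinoic acid and carries the repeat printed above, read 26.3 in wild type MEFs against 114 in the knock out. This is at least 1.14-fold higher when the low signal is set to 100. Cyp2s1, a related cytochrome with activity on retinoic acid, was 26.4 and 32.4 and thus low on both arrays. Cyp26a1 reached 100 only through the knock out array, which fixes its direction. Of the 3 degrading enzymes measured, Cyp26b1 was the one above 100 on both arrays. Cyp26c1, also listed, had no probe set named for it alone.

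**Figure D2:**
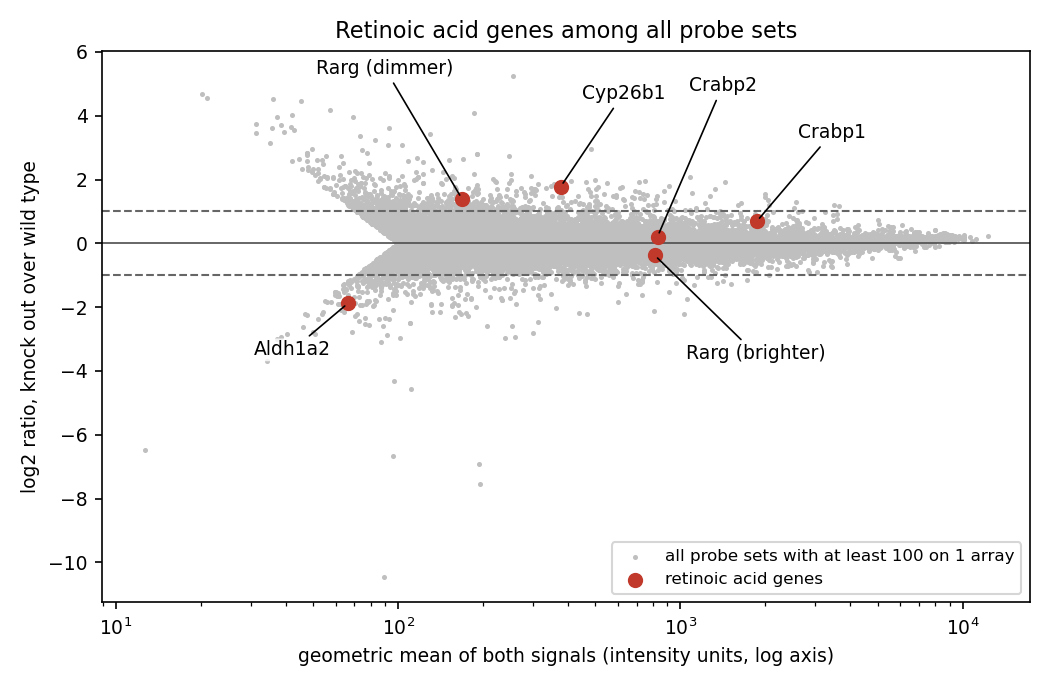
Log2 ratio (knock out to wild type) against the geometric mean of both signals (logarithmic axis) for all 20412 probe sets with at least 100 on 1 array (grey) and for the 6 member probe sets among them (red). Dashed lines mark 2-fold. Cyp26b1 (1.78) and the dimmer probe set of Rarg (1.40) lie above the upper line and Aldh1a2 (-1.88) below the lower one, while Crabp1, Crabp2 and the brighter probe set of Rarg lie between them.

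On the side of synthesis, Aldh1a2 encodes the main retinaldehyde dehydrogenase of the early embryo. Its single probe set (Entrez gene 19378) read 127 in wild type MEFs against 34.6 in the knock out. The difference is at least 1.27-fold with the low signal set to 100, and the log2 ratio of the signals as deposited was -1.88. Probe sets at this level vary widely, with a standard deviation of log2 ratios of 0.64 at mean signals from 50 to 100, where 3.58% of 6445 were over 2-fold lower. Aldh1a1 (Entrez gene 11668), another enzyme of this step, was 97.8 in the wild type and 96.4 in the knock out, just under the limit for a low signal on both arrays. The 3 probe sets of Aldh1a3, the third enzyme of the family, were low on both arrays, the highest signal being 27.6.

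Stra6 (Entrez gene 20897), the receptor through which cells take up retinol from its serum carrier, read 8.16 in wild type MEFs against 26.4 in the knock out. Both signals are low, and no fold is given.

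Other cell types of an embryo culture were looked for by their markers. Of 6 mesothelial markers, 3 reached 100 on their brightest probe set, and the summed signal of all 6 was 319 for the wild type and 701 for the knock out culture. The defining markers Wt1 (11.0 and 6.12) and Upk3b (26.5 and 41.4) were low on both arrays, as was Lrrn4 (34.9 and 20.9). Msln was 26.6 and 326 and Krt19 was 88.0 and 197, while Upk1b, the one marker of this list above 100 on both arrays, was 132 and 109 (-0.28). Of 6 epithelial markers, 2 reached 100, and the summed signal was 521 and 1714. The brighter probe set of Epcam read 174 and 1350.5 but the dimmer 5.81 and 4.07, and Krt5 was 138 and 107.7 (-0.35). The others were low on both arrays by their brightest probe set. Cdh1, which defines epithelium, was at 11.5 and 19.5, Krt8 at 73.5 and 91.9, Krt18 at 89.4 and 99.7, and Krt14 at 35.5 and 44.5. Of 5 neural markers 2 reached 100, with Stmn2 at 202 and 445 (1.14) and Tubb3 at 170 and 122 (-0.48), and the summed signal was 463 and 648. Sox2 was low on both arrays (14.7 and 6.59). The endothelial list had 1 of 5 markers at 100 or more, Kdr with 101 and 156 (0.63), and a summed signal of 201 and 222, and Pecam1 was low on both arrays (12.2 and 9.97). Of 6 macrophage markers 4 reached 100 (1100 and 1013 summed, log2 ratios from -0.60 to 0.29), and of 5 skeletal muscle markers 2 did (382 and 449 summed, 0.09 and 0.17). The part of these cell types in the values of Cyp26b1 and Aldh1a2 was not tested.

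Both cytosolic binding proteins were well measured and within 2-fold. Crabp1, which encodes a protein that binds retinoic acid in the cytosol and is linked to its breakdown, read 1468 in wild type MEFs against 2373 in the knock out (Entrez gene 12903). Its log2 ratio was 0.69, or 1.62-fold, and remained above 0 under each scaling, with 0.30 after spike-in scaling as the lowest. At mean signals from 1000 to 2000, where Crabp1 lies, the standard deviation of the log2 ratio was 0.33. Of 2036 probe sets there, 1.38% were over 2-fold apart in either direction, a limit that Crabp1 did not reach. The share beyond 1.62-fold was not counted. Crabp2, which encodes the protein that delivers retinoic acid to the receptors in the nucleus, was 772.5 and 893 (Entrez gene 12904). Its log2 ratio of 0.21 is small and turned to -0.18 after spike-in scaling. Fabp5, which encodes a fatty acid binding protein that can also carry retinoic acid, was 6420.4 and 5969 on its brighter probe set (-0.11) and 3384 and 3640.3 on the other (0.11).

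Among the receptors, Rarg had 2 probe sets that lay on opposite sides of 0. RARγ is the retinoic acid receptor best known in mesenchyme, cartilage and skin. The brighter probe set of this gene (Entrez gene 19411) read 922 in wild type MEFs against 712 in the knock out, a log2 ratio of -0.37, or 1.30-fold lower. The dimmer one was 104 and 273, a log2 ratio of 1.40, or 2.63-fold higher. It did not reach 500, and at mean signals from 100 to 250, where it lies, 3.51% of 7237 probe sets were over 2-fold higher. The opposite signs were kept under each scaling, with -0.77 to -0.34 for the brighter and 1.01 to 1.40 for the dimmer probe set, and the mean over both was 0.51. The stretch of the transcript that each probe set reads was not analysed here, so no direction is given for the gene.

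Rara (Entrez gene 19401), the receptor expressed most broadly, was 89.9 in the wild type and 98.8 in the knock out. Rarb (Entrez gene 218772), the receptor gene that is itself a target of retinoic acid and holds the repeat printed above, read 58.4 against 84.5. Both genes were low on each array, and no fold is given. Of the RXR partners, Rxra was 204 and 281 (log2 ratio 0.47, with 0.23 on its next probe set) and Rxrb was 340.1 and 401.5 (0.24), within 2-fold. Rxrg was low on both arrays (5.90 and 26.3). Of the 6 receptor genes 3 reached 100 and 0 were over 2-fold apart by their brightest probe set. Their median log2 ratio of 0.24 turned to -0.15 after spike-in scaling.

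**Figure D3:**
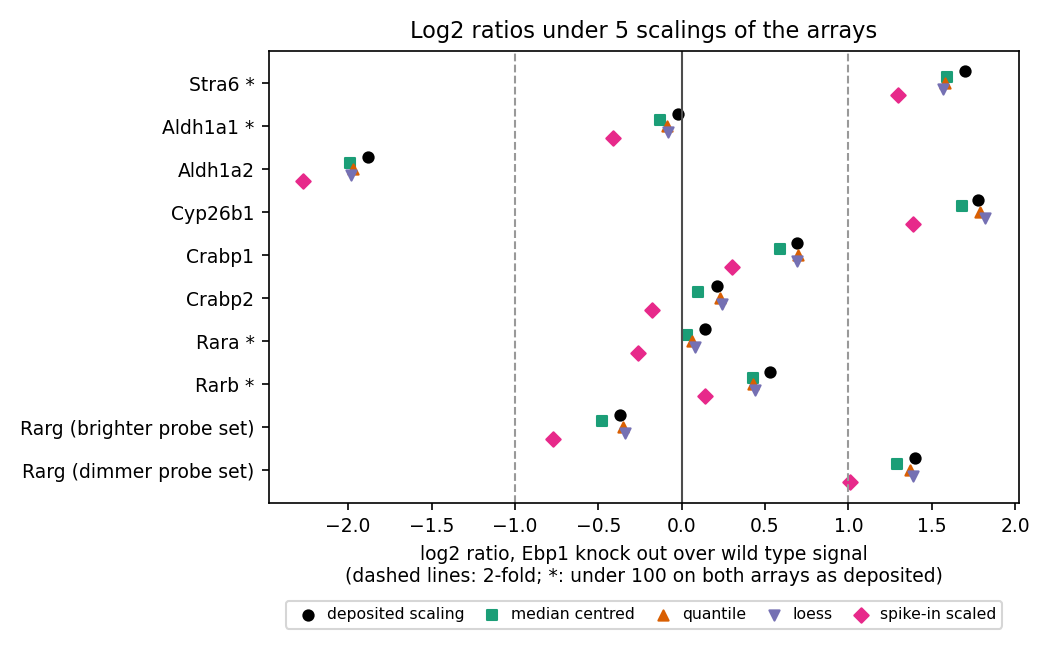
Log2 ratios (knock out to wild type) of the 10 probe sets under the deposited scaling and 4 others (median centring, quantile normalization, loess, spike-in scaling). Dashed lines mark 2-fold and asterisks mark genes under 100 on both arrays. Cyp26b1 stays beyond 2-fold under all 5, the 2 probe sets of Rarg stay on opposite sides of 0, and Crabp2 and Rara lie below 0 only after spike-in scaling.

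Over the 5 members that reached 100 the median log2 ratio was 0.21, with 3 above and 2 below 0, against a median of -0.06 over the 10553 genes that reached 100. Of these 5 members, 4 were at 100 or more on both arrays. Aldh1a2 passed the minimum only through the wild type array, on which it was higher, so the median is a description of the 5 members only. It was 0.10 after median centring and -0.18 after spike-in scaling of the same 5 genes, which moved the median of all probe sets by -0.11 and -0.39.

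The wider pathway was described by lists chosen by function. Outside the members they held 79 genes, of which 70 had a probe set of their own and 43 reached 100. Of these 43, 15 were above and 28 below 0, with a median log2 ratio of -0.07, and on a minimum of 100 the only log2 ratios beyond 2-fold were those of Cyp26a1, at least 1.14-fold higher given its low signal, and of Thra, which was lower. The remaining genes lay within 2-fold by their brightest probe set under the deposited scaling.

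Under the deposited scaling, retinol uptake, storage and oxidation showed no gene over 2-fold apart among the 12 of 26 measured that reached 100 (median -0.05, 4 above and 8 below 0). After spike-in scaling the median was -0.44, with 2 above and 10 below 0 and 1 over 2-fold lower. The highest log2 ratio was that of Adh7, with 147 and 282 (0.94, and 0.77 for a dimmer probe set that was low in wild type MEFs). The lowest was that of Dhrs7, with 355 and 221 (-0.68). Rdh10, which encodes the main retinol dehydrogenase of the embryo, was 474 and 331.5 (-0.52, and -0.09 for a dimmer probe set). Dhrs3, which encodes the enzyme that turns retinaldehyde back into retinol and is induced by retinoic acid, was 735 and 717.5 (-0.03). Adh5, a broadly expressed alcohol dehydrogenase, was 1903 and 1878 (-0.02), and Rdh11, a retinaldehyde reductase, was 507 and 625 (0.30).

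Among receptors that pair with RXR, Thra, which encodes thyroid hormone receptor alpha, read 1111 in wild type MEFs against 484 in the knock out on its brightest probe set, a log2 ratio of -1.20, or 2.29-fold lower. Its log2 ratio lay between -1.59 and -1.16 under the scalings tried. A dimmer probe set was at least 1.73-fold lower, and another was 257.5 and 308 and higher (0.26), so the probe sets did not share a direction. Nr4a1, an immediate early orphan receptor, was 973 and 1204 (0.31), Ppard was 372 and 217 (-0.78) and Vdr, the vitamin D receptor, was 246 and 150.1 (-0.71, and 0.08 for a dimmer probe set with 154 and 164). Of the 5 genes of this list that reached 100, 4 were below 0 and 1 was over 2-fold lower. Over all 10553 genes that reached 100, 1.93% were over 2-fold lower. After spike-in scaling, which shifts each log2 ratio by -0.39, the counts in this list were 5 and 3. The share over all genes under that scaling was not counted, so these counts are a description only.

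Of the coregulators that receptors recruit, 0 of 13 were over 2-fold apart, with a median log2 ratio of -0.12. Of these 13, 10 were below 0, beside a median of -0.06 over all genes that reached 100. The share of all genes below 0 was not counted. The highest log2 ratio of the 13 was 0.20, so the shift of -0.39 under spike-in scaling places all 13 below 0. Tbl1x, a subunit of the corepressor complex, was 1615 and 1658 (0.04), and its dimmer probe sets were 309 and 456 (0.56) and 72.0 and 192 (at least 1.92-fold higher). The deacetylase gene Hdac3 was 1039 and 959 (-0.12). Med1, the Mediator subunit that binds receptors, was 972 and 934.5 (-0.06), and its other probe sets at 100 or more ran from -0.19 to 0.81. The acetyltransferase gene Kat2b was 751 and 389 (-0.95), which passed 2-fold after median centring (-1.06) and spike-in scaling (-1.34), while its next probe set was 78.6 and 109.

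Genes known to respond to retinoic acid did not share a direction. Of 26 listed, 22 were measured and 14 reached 100, with 8 above and 6 below 0, and of these Cyp26b1 was over 2-fold higher, while Cyp26a1, with a log2 ratio of 2.12, is at least 1.14-fold higher given its low wild type signal. Btg2, an antiproliferative gene, was 1155 and 1613 (0.48, and 0.73 for a dimmer probe set), Tgm2, the gene of tissue transglutaminase, was 605.5 and 594 (-0.03) with 4 dimmer probe sets from 0.23 to 0.75, and the homeobox gene Meis2 was 648 and 396 (-0.71, with -0.37 on its next probe set). Hoxa5 was 303 and 475 (0.65), with 222 and 245 (0.14) on a dimmer probe set. The median of the 14 genes was 0.13, and -0.26 after spike-in scaling.

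**Figure D4:**
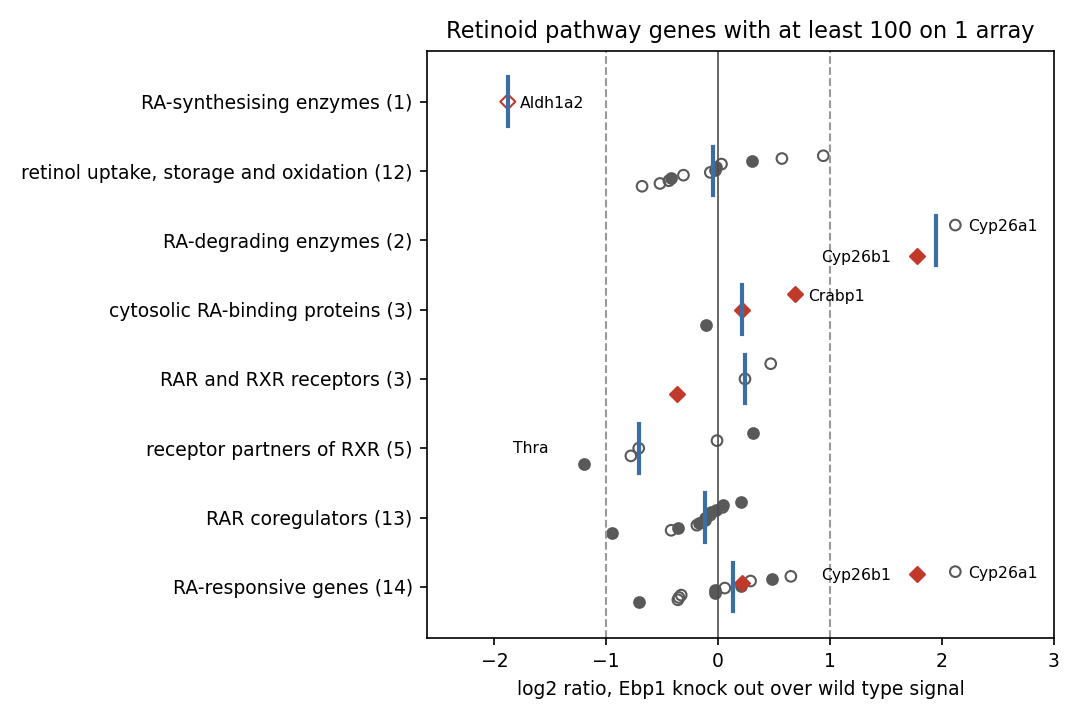
Log2 ratios (knock out to wild type) of genes of the retinoid pathway with at least 100 on 1 array, by their brightest probe set, with the number of genes in parentheses. Diamonds mark the 9 described genes and circles others, filled where a signal reached 500, blue bars are medians and dashed lines mark 2-fold. Beyond the 2-fold lines lie Aldh1a2 and Thra on the lower side and Cyp26b1 and Cyp26a1 on the higher side, and the last 2 are drawn in 2 lists. Aldh1a2 and Cyp26a1 are low on 1 array, so their differences are at least 1.27-fold and at least 1.14-fold.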

How the data were processed

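The deposited values are linear signal intensities, 1 per probe set and array, which the authors made with MAS5 (Microarray Suite version 5.0), setting both arrays to the same target. Their detection calls and p-values were not used. The study's methods name a human array, whereas the probe set identifiers matched the mouse annotation used here. Of 45037 probe sets without 64 controls, 34945 had 1 gene symbol, 932 several and 9160 none, and 34741 probe sets had an Entrez identifier found in GRCm38.p6, through which symbols were updated. Knock out signals were divided by wild type signals and taken as log2. Probe sets with 500 or more on either array that were over 2-fold apart were counted. Folds against signals under 100 are bounds, with 100 in place of the low signal. A single array per genotype leaves no replicate spread, so nothing was tested, and the number of arrays limits the precision. The members and lists were chosen with earlier results of these data known. The named genes are all members, all receptors, the enzymes that make or degrade retinoic acid, list genes over 2-fold apart and up to 3 of the brightest others per list. Genes named beyond this rule (Rdh10, Adh7, Dhrs7, Kat2b, Tgm2, Meis2, Hoxa5, Bco1 and the single cell type markers) were chosen after their values were seen. Steps were tested on simulated data with less scatter than these arrays and with changes placed only in bright probe sets. That test therefore does not cover calls at dimmer signals. Alternatives covered the scaling (loess fraction 0.3), low signals, 50 added to each signal, minimum, fold and choice of probe set. A comparison of the CRABP proteins was not made. Computations ran in pandas 2.3.3 and numpy 2.4.6 under Python 3.11.15, with loess from statsmodels 0.14.6 and plots from matplotlib 3.10.9.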

Additional observations from a re-analysis of the deposited data

How the results depend on the processing

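The count of 1 member over 2-fold, Cyp26b1, was 1 under all 4 other scalings, with 50 added, with signals raised to 100, without the suffixes _x_at and _s_at, with the mean over probe sets and at 3-fold. It was 0 by probe set and by gene with signals raised to 500, and 0 by both with at least 500 on both arrays. It was 3 probe sets and 2 genes with a minimum of 100, 4 and 3 with no minimum, and 2 and 2 at 1.5-fold. These differences follow from the construction of each setting. The median log2 ratio of the members turned from 0.21 to -0.01 after median centring, where Aldh1a1 also reached 100, and to -0.18 after spike-in scaling. It rose to 0.51 with the mean over probe sets, and to 0.45 with a minimum of 500, which Aldh1a2 did not reach. Of 81 values of single members under the alternatives 8 moved by over 1.5-fold, among them Cyp26b1 to 0.48 with signals raised to 500 and Aldh1a2 to -0.35 with signals raised to 100, and 3 changed sign (Crabp2 and Rara after spike-in scaling, Rarg with the mean over probe sets). No paired analysis was possible because each genotype has a single array. Low signal limits the 4 members under 100 on both arrays and also Aldh1a2, which was under 100 on the knock out array.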
